A study of Mus musculus with 6 samples.

Results

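The cell proliferation genes followed here are 39 mouse genes chosen by symbol, all of which were found among the 22609 genes listed in each of 6 count files. They were sorted by role into 12 S phase genes that license and copy DNA, 16 mitotic genes that act from late S phase to the end of cell division, 8 G1 drivers and 3 inhibitors of cyclin-dependent kinases (CDKs). The cells were primary adipocytes, grown out from the stromal vascular fraction of inguinal white fat (iWAT) of male C57BL6 mice, aged 3 weeks by the sample labels and older by the paper's methods, and differentiated in culture. The control group was 3 cultures labelled control vector, which the paper calls mimic control, and the comparison group was 3 cultures overexpressing miR182, which the paper calls miR-182-5p mimic. Every culture in both groups went through the same differentiation and transfection, and the labels name electroporation where the paper's methods name a lipid reagent. Neither source says whether the cultures came from separate animals, so p values measure the spread between these cultures only. The cultures are mixtures, since stromal cells that do not become adipocytes can remain beside the adipocytes and keep dividing.

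A cell that enters division passes from G1, when D cyclins with Cdk4 or Cdk6 and then E cyclins with Cdk2 inactivate the retinoblastoma proteins, into S phase, when the replication helicase opens DNA for copying. The same step releases E2F factors, which switch on genes for DNA synthesis. Mitotic genes are switched on later, through the MuvB complex with B-Myb and Foxm1, and the same complex joined to p130 keeps them off in resting cells. Adipocytes leave the cell cycle as they differentiate, so in a fat cell culture the S phase and mitotic genes mark the cells that still divide. The G1 drivers and CDK inhibitors are not such markers. MicroRNAs lower the level of messenger RNAs that pair with their seed, bases 2 to 8. The paper's methods print a different mature sequence under the name miR-182-5p, and the seed of that sequence was not searched for here. The RefSeq sequence of miR-182-5p, on the minus strand of chromosome 6 of GRCm38.p6 (chr6:30165962-30165986), is shown with its seed in capitals, because the seed decides which of the 39 genes hold a matching site.
mmu-miR-182-5p: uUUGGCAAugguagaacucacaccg

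Reads counted on genes numbered between 25869810 and 28796712 per culture, and the 39 genes took between 32435 and 39498 of them. Values are CPM (reads per 1000000 reads on genes) on library sizes scaled by TMM, edgeR's normalization, unless a sentence names another scale. A gene is said to have risen or fallen where the adjusted p of edgeR's quasi-likelihood test, over the 13117 genes with enough reads, was under 0.05. It is said to be called where it also changed at least 1.5-fold, which is 0.585 on the log2 scale, the cutoffs named in the paper. Errors are SD with n = 3, and SE denotes the standard error of a log2 fold change. Control means of adipocyte markers ran from 7.56 CPM (Pck1) to 6275.5 CPM (Lpl). Adipoq, the gene for adiponectin, had 906 to 946 CPM in the controls and 616 to 727 CPM with the mimic. Those of progenitor markers ran from 0.141 CPM (Dpp4) to 705 CPM (Pdgfrb). Markers of smooth muscle or myofibroblasts had control means from 7.66 CPM (Des) to 2364 CPM (Acta2). Macrophage and endothelial markers summed to at most 16.0 and 3.68 CPM in any culture.

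Most proliferation genes were lower with miR-182-5p mimic. Of the 39 genes, 32 fell and 2 rose, and the median log2 fold change was -0.60, against -0.0043 over all genes tested. The share that fell was 82.1%, where 23.5% of all genes tested fell and 23.2% rose. By the stricter rule 20 of the 39 (51.3%) were called lower, against 5.48% of all genes tested, and 0 were called higher, against 1.97%. At an unadjusted p under 0.05, 3 of the 39 were higher, and DESeq2 and limma-voom also called 0 higher. In 32 of the 39 genes every mimic culture lay below every control culture, which was the case for 27.5% of all genes tested, and in 3 genes every mimic culture lay above, the case for 27.3%. For the S phase and mitotic genes, fewer dividing cells and less of these messages per dividing cell cannot be told apart in bulk RNA.

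**Figure D1:**
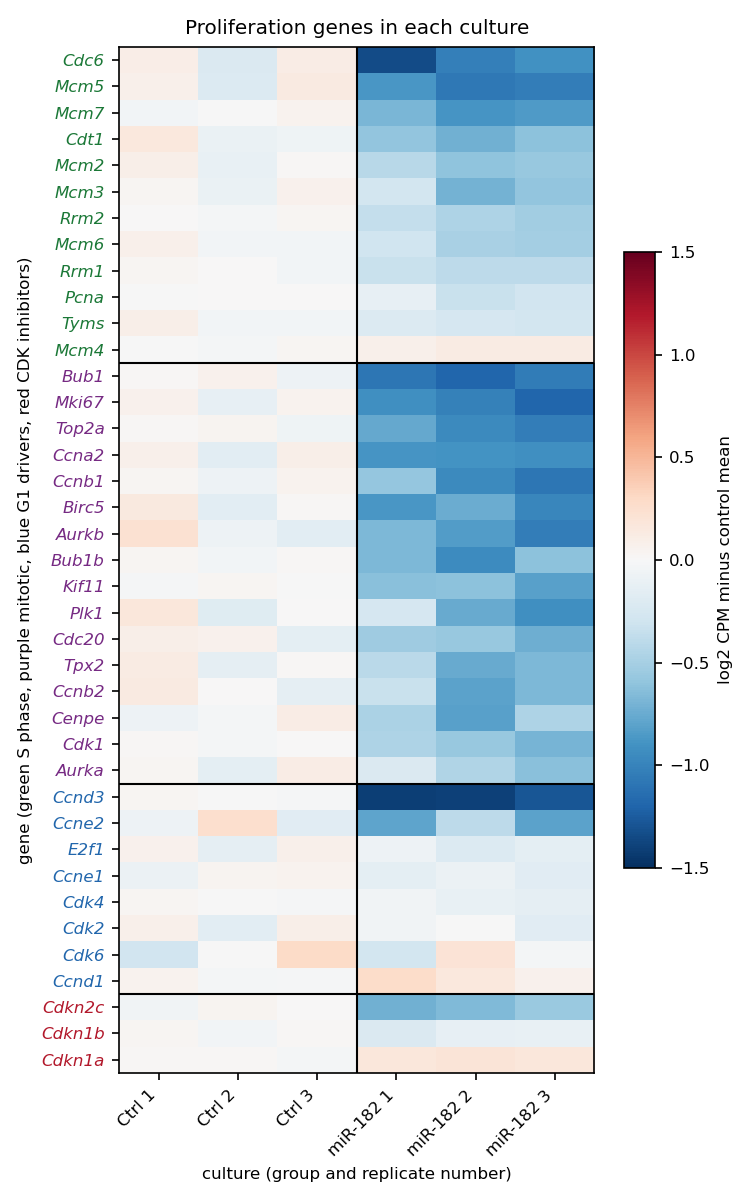
Level of each of the 39 genes (rows, grouped by role) in each of the 6 cultures (columns), as log2 CPM minus the mean of the 3 control cultures; blue is lower and red is higher. The rows of the mitotic genes are blue in all 3 mimic cultures, while Mcm4, Ccnd1 and Cdkn1a are pale red.

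The S phase genes were lower as a group, with 1 exception. Of the 12, 11 fell, 0 rose and 4 were called lower (Cdc6, Mcm5, Mcm7 and Cdt1), and the median log2 fold change was -0.48, a decrease of 28.3%. At an unadjusted p under 0.05, 1 of the 12 was higher. Cdc6, which loads the helicase at origins of replication, had 4.95, 3.94 and 4.98 CPM in the controls and 1.75, 2.20 and 2.41 CPM with the mimic. These groups were well apart, and the log2 fold change of Cdc6 was -1.13 (SE 0.15, adjusted p = 3.35e-05 from edgeR). Cdt1, its partner in helicase loading, went from 10.3 ± 1.01 to 6.51 ± 0.316 CPM. Its log2 fold change of -0.66 (SE 0.092, adjusted p = 4.61e-05 from edgeR) kept its call with any culture dropped except control replicate 1 (-0.57).

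The 6 Mcm genes encode the subunits of the ring-shaped replication helicase, which work in equal numbers. Mcm5 was at 27.2, 22.2 and 28.2 CPM in the controls and at 14.0, 12.2 and 12.5 CPM with the mimic, so that the lowest control stood far above the highest mimic culture. Its log2 fold change was -1.002 (SE 0.087, adjusted p = 4.8e-07 from edgeR). Mcm7 was next among the 6, with 26.0 ± 0.858 CPM in the controls, 14.9 ± 1.149 CPM with the mimic and a log2 fold change of -0.81 (SE 0.065, adjusted p = 2.12e-07 from edgeR). Mcm2, Mcm3 and Mcm6 fell by 0.53, 0.51 and 0.43 on the log2 scale, short of the 1.5-fold line. Without miR-182-5p mimic replicate 1, Mcm2 and Mcm3 crossed that line, at -0.59 and -0.65.

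Mcm4 did not share this direction. Its CPM was 34.4, 33.9 and 35.4 in the controls and 36.5, 37.7 and 37.5 with the mimic. Each mimic culture lay slightly above each control, but the log2 fold change of 0.11 (SE 0.045) had an adjusted p of 0.064 from edgeR and stayed positive and short of the test in every alternative fit. The ratio of Mcm4 to Mcm5 reads within a culture, which needs no library scaling, was 1.26, 1.53 and 1.26 in the controls and 2.62, 3.10 and 2.99 with the mimic. For Mcm4 over Mcm2 the ratios were 0.902, 1.02 and 0.970 in the controls and 1.356, 1.603 and 1.545 with the mimic. Neither ratio overlapped between groups (two-sided exact permutation test, p = 0.1 for each, below which 3 against 3 cultures cannot go). These p values were not adjusted over the 3 ratios compared in this way. Each of the 3 sets a gene that did not fall over a gene that fell. The separation therefore restates the fold changes and is no separate support for them. Exons of Mcm4 overlap no other annotated gene, whereas 172 exon bases of Mcm7 are shared with genes on its own strand and 385 with genes on the opposite strand, among them Ap4m1 and the microRNA genes Mir25 and Mir93.

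The genes that make nucleotides for synthesis, and the gene of the polymerase clamp, fell without being called. Rrm1 and Rrm2, the subunits of ribonucleotide reductase, and Tyms, which makes thymidylate, fell by 0.37, 0.45 and 0.25 on the log2 scale. Rrm1 had 104.7, 102.9 and 99.96 CPM in the controls and 81.5, 78.1 and 78.3 CPM with the mimic, a small change with a narrow spread (SE 0.033, adjusted p = 6.62e-07 from edgeR). Pcna, the sliding clamp of the DNA polymerases, had 23.6, 23.7 and 23.8 CPM in the controls and 21.7, 18.8 and 19.3 CPM with the mimic. All mimic cultures were below the controls for Pcna, with a log2 fold change of -0.25 (SE 0.062, adjusted p = 0.00457 from edgeR). Tyms passed the test narrowly (adjusted p = 0.017 from edgeR) and missed it without control replicate 1 (0.0757), without miR-182-5p mimic replicate 3 (0.0541) and with DESeq2 (0.0695).

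**Figure D2:**
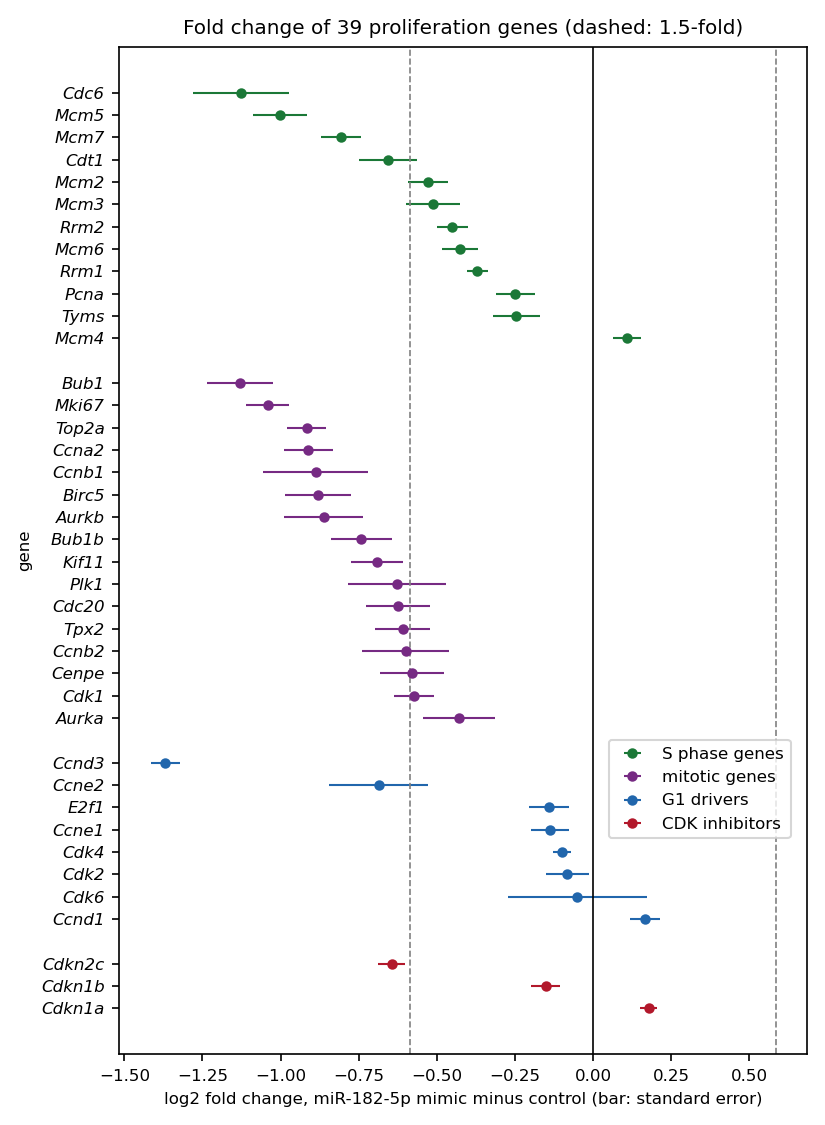
Log2 fold change (horizontal axis, mimic minus control) of each of the 39 genes with its standard error as a bar, grouped by role; dashed lines mark 1.5-fold. All 16 mitotic genes lie left of zero, between -1.13 and -0.43, and Ccnd3 at -1.37 is the lowest of all 39.

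Promoters of the S phase genes often held an E2F element. The search covered the RefSeq promoters of GRCm38.p6, from 250 bases before to 50 bases after a gene's start, for any of TTTCGCGC, TTTGGCGC, TTTCCCGC and TTTGCCGC on either strand, forms which can overlap each other. A promoter was given for 33 of the 39 genes, and Mcm4, Ccna2, Aurkb, Tpx2, Ccnd1 and Ccne2 had no entry. Of the 12 promoters of S phase genes 6 held a match (50%), against 1 of 13 of mitotic genes (7.69%), 744 of all 32851 promoters (2.26%) and 3.78% of the promoters of genes tested. In longer lists without the 39, described below, the contrast was smaller. A match was in 30.2% of 43 promoters of other S phase genes and 7.41% of 54 of other mitotic genes. It was also in 25.0% of 40 promoters of other G1 and checkpoint regulators, which did not fall as a group. These counts describe letters in a window and not factor binding. The 6 genes with a match were Mcm3, Mcm5, Mcm6, Mcm7, Cdc6 and Cdt1. For the 4 of these that were called lower, a window is printed 5′ to 3′ on the strand of the gene, with the match in capitals (in Cdc6 it lies on the other strand, so the capitals read GCGGGAAA).
Mcm5 (chr8:75109345-75109374, plus strand): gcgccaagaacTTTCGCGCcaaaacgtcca
Mcm7 (chr5:138171849-138171878, minus strand): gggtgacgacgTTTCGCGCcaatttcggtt
Cdc6 (chr11:98908002-98908031, plus strand): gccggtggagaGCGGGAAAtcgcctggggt
Cdt1 (chr8:122568035-122568064, plus strand): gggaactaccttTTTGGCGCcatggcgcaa

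The mitotic genes were lower without exception. All 16 fell, 13 of them were called lower, and the median log2 fold change was -0.72, a decrease of 39.1%. Mki67, which encodes the Ki-67 protein that coats mitotic chromosomes and is the standard stain for dividing cells, had 50.9, 44.6 and 50.3 CPM in the controls and 25.6, 24.0 and 21.3 CPM with the mimic. The highest mimic culture was far below the lowest control for Mki67. Its log2 fold change was -1.04 (SE 0.069, adjusted p = 2.8e-08 from edgeR). Top2a, the topoisomerase that untangles sister chromosomes, went from 55.2, 55.9 and 52.1 CPM to 32.0, 27.9 and 26.5 CPM. The groups did not overlap, and the log2 fold change of Top2a was -0.92 (SE 0.062, adjusted p = 3.84e-08 from edgeR). Both genes are also active before mitosis, in S and G2, as is Ccna2.

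The cyclins that drive entry into mitosis fell together with their kinase. Ccna2, the gene of cyclin A2, had 18.1, 15.4 and 18.4 CPM in the controls and 9.32, 9.22 and 9.03 CPM with the mimic, a log2 fold change of -0.91 (SE 0.079, adjusted p = 4.71e-07 from edgeR). Ccnb1, one of the B cyclins, stood at 3.02, 2.79 and 3.06 CPM in the controls and at 1.95, 1.48 and 1.35 CPM with the mimic. It rested on only 38 to 80 reads per culture, and its log2 fold change of -0.89 had a wide standard error of 0.17 (adjusted p = 0.000576 from edgeR). Ccnb2 fell by 0.60 on the log2 scale. Cdk1, the kinase that both cyclin types activate, had 25.1, 24.4 and 25.0 CPM in the controls and 18.1, 16.7 and 15.3 CPM with the mimic. It was lower in all 3 mimic cultures, by 0.57 on the log2 scale (SE 0.065, adjusted p = 6.02e-06 from edgeR), just short of the 1.5-fold line.

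Checkpoint and spindle genes showed the same direction with varying size. Bub1, a kinase of the spindle checkpoint that delays chromosome separation, went from 7.23, 7.47 and 6.78 CPM to 3.32, 3.07 and 3.40 CPM, the lowest log2 fold change of the mitotic genes at -1.13 (SE 0.10, adjusted p = 9.05e-07 from edgeR). Bub1b, its relative in the same checkpoint, fell by 0.74 on the log2 scale and Cdc20, the activator of the ligase that the checkpoint holds back, by 0.62. Among the motors and spindle factors, Kif11, which pushes spindle poles apart, fell by 0.69, Tpx2, which nucleates microtubules, by 0.61 and Cenpe, the kinetochore motor, by 0.58. Birc5, the gene of survivin, and Aurkb, the kinase it works with in the chromosomal passenger complex, fell by 0.88 and 0.86.

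The kinases Aurka and Plk1, which act at centrosomes, fell as well. Plk1 had 7.46, 5.82 and 6.67 CPM in the controls and 5.55, 3.87 and 3.44 CPM with the mimic. Its highest mimic culture came close to its lowest control. The log2 fold change of Plk1 was -0.63 (SE 0.16, adjusted p = 0.00439 from edgeR). Aurka had the smallest change of the 16, from 7.58, 6.70 and 8.01 CPM to 6.37, 5.39 and 4.78 CPM, a log2 fold change of -0.43 (SE 0.12, adjusted p = 0.00737 from edgeR). Plk1, Ccnb2 and Tpx2 lost their call, though not the adjusted p, when 1 of 3 cultures was dropped, without control replicate 1, without mimic replicate 2 and without mimic replicate 3. Cdc20 lost it in 2 of them, without control replicate 1 and without mimic replicate 3. Cdk1 gained a call without control replicate 2 (-0.59) and without mimic replicate 1 (-0.64), and Cenpe without any 1 of 4 cultures, namely control replicates 1 and 2 and mimic replicates 1 and 3.

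Promoters of the mitotic genes often held another element. The cell cycle homology region, TTTGAA on either strand, is where the MuvB complex binds, often close to a CCAAT box, the site of NF-Y. Of 13 promoters of mitotic genes 9 held TTTGAA (69.2%), against 1 of 12 of S phase genes (8.33%), 5878 of all 32851 promoters (17.9%) and 11.8% of the promoters of genes tested. A CCAAT box on either strand was in 12 of these 13 (92.3%), in 9 of 12 of S phase genes (75.0%) and in 37.4% of all promoters. Both motifs together were in 69.2% of promoters of mitotic genes, 8.33% of S phase genes and 6.95% of all. In the longer lists, TTTGAA was in 70.4% of promoters of other mitotic genes and 25.6% of other S phase genes. For other G1 and checkpoint regulators it was 22.5%. The motifs can share at most 1 letter. Windows with a forward match are shown for a cyclin, its kinase, a centrosome kinase, a ligase activator and Ki-67, with the match in capitals, to let the shared letters be seen.
Ccnb2 (chr9:70421533-70421562, minus strand): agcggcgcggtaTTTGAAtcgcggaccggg
Cdk1 (chr10:69352910-69352939, minus strand): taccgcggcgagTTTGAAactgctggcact
Plk1 (chr7:122159453-122159482, plus strand): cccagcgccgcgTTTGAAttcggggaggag
Cdc20 (chr4:118437344-118437373, minus strand): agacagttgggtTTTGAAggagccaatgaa
Mki67 (chr7:135716460-135716489, minus strand): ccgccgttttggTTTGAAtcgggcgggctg

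Set side by side, the mitotic genes had the lower median log2 fold change (-0.72 against -0.48 for the S phase genes) and the larger share called lower (13 of 16, or 81.2%, against 4 of 12, or 33.3%). The mean log2 CPM of the S phase genes, taken relative to the control mean, was -0.45, -0.57 and -0.54 in mimic replicates 1 to 3. For the mitotic genes it was -0.61, -0.80 and -0.84. The mitotic mean minus the S phase mean was 0.017, 0.013 and -0.029 in the controls and -0.16, -0.23 and -0.31 with the mimic, so the values of the groups did not overlap. No test was applied to a mean over genes. Mimic replicate 1 lay closest to the controls: among the 3 mimic cultures it had the highest level of 11 of the 16 mitotic genes and of 10 of the 12 S phase genes, and the lowest level of 0 mitotic genes. Without it, 24 of the 39 genes were called lower, and without any other single culture the number ranged from 16 to 21.

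**Figure D3:**
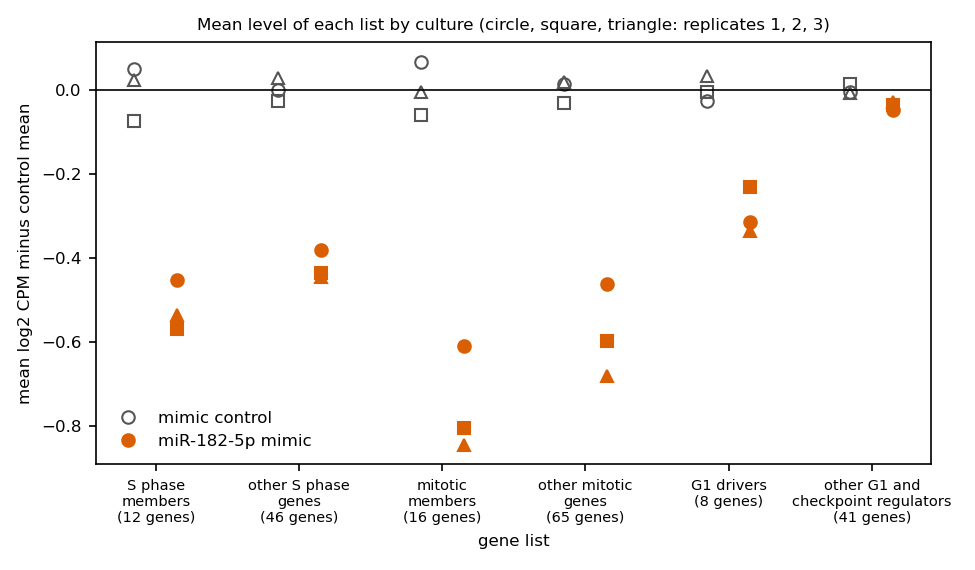
Mean over the genes of each list of log2 CPM minus the control mean (vertical axis), with 1 symbol per culture; open grey symbols are mimic control, filled orange symbols are miR-182-5p mimic. In the 4 lists of S phase and mitotic genes all mimic cultures lie below all controls, and mimic replicate 1 (circle) is the highest of the 3 in each.

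The G1 drivers split. Of the 8, 3 fell (37.5%), 1 rose and 4 did not pass the test, where 23.5% of all genes tested fell and 23.2% rose. The median log2 fold change was -0.12. Ccnd3, the gene of cyclin D3, had 64.5, 62.9 and 62.3 CPM in the controls and 23.7, 23.8 and 25.9 CPM with the mimic. Each group was tight and the groups were far apart, with a log2 fold change of -1.37 (SE 0.047, adjusted p = 2.96e-11 from edgeR), or 2.58-fold lower. Ccnd3 ranked at 40 of all 13117 genes by p. Its sister Ccnd1, the gene of cyclin D1, had 75.5, 71.3 and 72.3 CPM in the controls and 88.2, 81.2 and 76.4 CPM with the mimic. The mimic cultures were all higher, by a log2 fold change of 0.17 (SE 0.047, adjusted p = 0.00998 from edgeR). The ratio of Ccnd1 to Ccnd3 reads within a culture was thus 1.16 ± 0.0186 in the controls and 3.36 ± 0.383 with the mimic. A two-sided exact permutation test gave p = 0.1, and 0.1 after adjustment over 3 ratios, again the floor of this design. Ccnd2, a D cyclin gene from a longer list described below, had a higher CPM than Ccnd1 or Ccnd3 in both groups. It had 342 ± 2.28 CPM in the controls and 348 ± 3.68 CPM with the mimic. Its log2 fold change of 0.028 (SE 0.026, adjusted p = 0.402 from edgeR) did not pass the test. The ratio of Ccnd1 to Ccnd3 therefore does not describe the D cyclin genes as a group.

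Ccnd3 was also the sole member with a full seed match to miR-182-5p. In the longest 3′-UTR of each gene in GENCODE M21 on GRCm38, TTGCCAA, which pairs with bases 2 to 8, was found in 1 of the 39 genes (2.6%) and in 12.5% of the 12548 genes tested that have a 3′-UTR. With an added A, as TTGCCAAA, it was found in the same gene and in 5.2% of genes tested. TGCCAAA, which pairs with bases 2 to 7 and ends in A, and which overlaps the former by 6 letters, was in Ccnd3, Ccnd1 and Cdk6, or 7.7% of members against 14.3% of genes tested. None of the 12 S phase genes, the 16 mitotic genes and the 3 CDK inhibitors held either form there. The sites are shown 5′ to 3′ in the sense of the transcript, with the match in capitals, since of these G1 genes Ccnd3 fell, Ccnd1 rose and Cdk6 did not pass the test. A match is a description of letters and was not tested for pairing.
Ccnd3 (chr17:47599103-47599130, plus strand): accttctcagTTGCCAAAacgccccagt
Ccnd1 (chr7:144930217-144930243, minus strand): cctagcaagcTGCCAAAccaaaacggg
Cdk6 (chr5:3525950-3525976, plus strand): tctaataaagTGCCAAAttgctgctgc

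The remaining G1 drivers moved little, apart from Ccne2. Ccne2, the gene of cyclin E2, had 3.93, 4.98 and 3.68 CPM in the controls and 2.36, 3.15 and 2.34 CPM with the mimic, which did not overlap. Its log2 fold change of -0.69 (SE 0.16, adjusted p = 0.00271 from edgeR) was called, though not without control replicate 2 (-0.54). Ccne1, the gene of the related cyclin E1, had 20.02 ± 1.11 and 18.2 ± 0.567 CPM, overlapping groups and an adjusted p of 0.0802 from edgeR. E2f1, the factor that activates S phase genes, had 26.5 ± 2.10 and 24.0 ± 1.10 CPM (adjusted p = 0.086 from edgeR), and Cdk2, the partner of the E cyclins, had 26.9 ± 2.46 and 25.4 ± 1.49 CPM (adjusted p = 0.359 from edgeR). Cdk4, the more abundant of the kinases that D cyclins bind, fell from 228 ± 3.63 to 213 ± 6.45 CPM, a log2 fold change of -0.10 (adjusted p = 0.0139 from edgeR), and missed the test without control replicate 1 (0.0582), mimic replicate 2 (0.0676) or mimic replicate 3 (0.0719). Cdk6, its homologue, was near the limit of detection with 26 to 41 reads per culture and a log2 fold change of -0.050 (SE 0.22, adjusted p = 0.875 from edgeR), whose sign changed without control replicate 3 or mimic replicate 1.

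**Figure D4:**
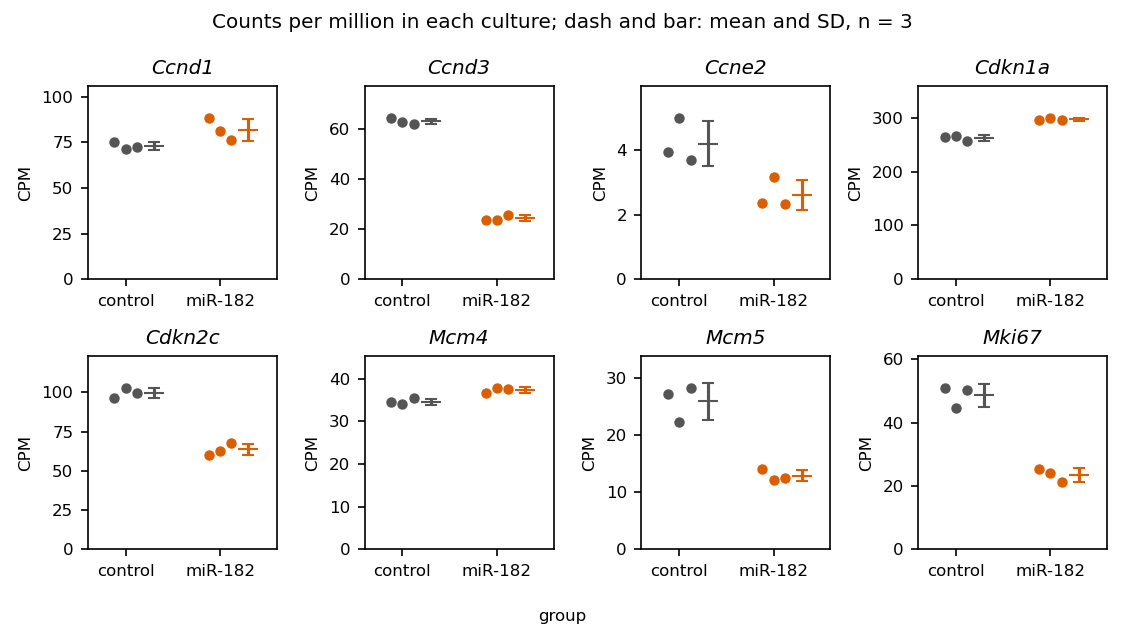
CPM (vertical axes, from 0) of 8 genes in the 3 control (grey) and 3 mimic (orange) cultures, with the mean and SD beside the points. The groups do not overlap in any of the 8 panels; Ccnd1, Cdkn1a and Mcm4 are higher with the mimic and the other 5 are lower.

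Of the 3 CDK inhibitors, 2 fell and 1 rose, where 23.5% of all genes tested fell and 23.2% rose. Cdkn1a encodes p21, which stops CDKs after p53 activation and in resting or senescent cells. It had 264, 266 and 256 CPM in the controls and 296, 299 and 295 CPM with the mimic, a small rise with almost no spread. The log2 fold change was 0.18 (SE 0.027, adjusted p = 0.0001 from edgeR), or 13.2% higher. Cdkn1b, the gene of p27, which holds Cdk2 inactive in quiescent cells, fell from 44.8 ± 1.14 to 40.3 ± 1.70 CPM, by 0.15 on the log2 scale (adjusted p = 0.0161 from edgeR), and missed the test without control replicate 1 (0.0555) and without mimic replicate 1 (0.0600). Cdkn2c, the gene of p18, which binds Cdk4 and Cdk6, had 96.2, 103 and 99.7 CPM in the controls and 60.4, 62.7 and 67.8 CPM with the mimic. These groups were far apart, and Cdkn2c was called lower with a log2 fold change of -0.64 (SE 0.043, adjusted p = 3.22e-08 from edgeR).

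Levels per length put these changes in proportion. On the RPKM scale, computed here from CPM and GENCODE exon lengths, the most abundant of the 39 in the controls was Cdkn1a at 73.8, followed by Cdk4 at 70.1, Cdkn2c at 37.0 and Rrm2 at 18.5. The mitotic genes reached at most 6.04 (Top2a) and 5.53 (Tpx2), and Bub1, Ccnb1 and Cenpe stood at 1.64, 0.702 and 1.13. Messages of the 3 inhibitors among the 39 were therefore more abundant than those of the 16 mitotic genes among the 39, in both groups. With the mimic, Cdkn1a was at 83.5, Cdkn1b, the least abundant of the 3, at 8.86 and Tpx2, the most abundant of the 16, at 3.62 RPKM. Inhibitor genes outside the 39 were not put on this scale. Exons of 12 of the 39 genes overlap those of another annotated gene, 11 of them on the opposite strand, and whether counting used the strand is not given in the sources used here. The longest such overlaps concern Ccnd1 (1100 of 4709 exon bases, with LTO1), Cdk4 (641 of 3249, with Tspan31) and Ccne2 (609 of 3495, with Ints8), while Ccnd3 shares 361 of 8775 exon bases with Bysl.

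Other genes of the same phases, from longer lists that exclude the 39, give the background of the pathway. Of 46 other S phase genes, 34 fell (73.9%, against 23.5% of all genes tested), 0 rose (against 23.2%) and 12 did not pass. Their median log2 fold change was -0.40. DESeq2 and limma-voom also gave 0 that rose, as did an unadjusted p under 0.05. By smallest p these were led by Rpa1, which coats single-stranded DNA and fell from 121 ± 1.31 to 92.6 ± 3.40 CPM, Dnmt1, the maintenance DNA methyltransferase, with a log2 fold change of -0.39, and Tk1, the thymidine kinase, with -1.30. Tk1 had 7.23, 6.20 and 7.59 CPM in the controls and 2.77, 3.15 and 2.62 CPM with the mimic. Of 65 other mitotic genes, 56 fell (86.2%, against the same 23.5%), 0 rose and 9 did not pass, with a median of -0.60. The smallest p among these belonged to Ncapd2, a condensin subunit (-0.60), Prc1, which bundles the microtubules of the midzone (-0.63), Anln, a scaffold of the contractile ring (-0.59), and Kif20a, a motor of cytokinesis (-0.88). At an unadjusted p under 0.05, 0 of these 65 were higher, and DESeq2 and limma-voom also gave 0 that rose.

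Regulators of G1 and of checkpoints were divided. Of 41 listed genes 40 were tested, of which 12 fell, 13 rose and 15 did not pass, with a median log2 fold change of 0.079. Of all genes tested, 23.5% fell and 23.2% rose. By the stricter rule 4 of the 40 (10%) were called lower and 0 higher, against 5.48% and 1.97% of all genes tested. Rbl1, the gene of p107, a retinoblastoma relative that E2F itself induces, fell from 17.2 ± 0.582 to 11.6 ± 0.0376 CPM, by 0.56 on the log2 scale. Rb1, the retinoblastoma gene, rose from 45.8 ± 3.62 to 62.0 ± 1.36 CPM (log2 fold change 0.44). Btg2, an antiproliferative p53 target, and Cdkn2b, the gene of the inhibitor p15, rose by 0.42 and 0.30 on the log2 scale. Other CDK inhibitor genes of the list did not rise. Cdkn1c was called lower, from 2.80 ± 0.689 to 1.47 ± 0.185 CPM (log2 fold change -0.93, adjusted p = 0.0014 from edgeR). Cdkn2a fell by 0.14 on the log2 scale (adjusted p = 0.0196 from edgeR), and Cdkn2d did not pass the test. Besides Ccnd2, Cdkn1c, Cdkn2a and Cdkn2d, given above, genes picked in addition, after their values were seen, were Foxm1, the factor of the mitotic program (-0.70), Skp2, which marks p27 for degradation (-0.71), E2f7 and E2f8, repressors in the E2F family (-0.87 and -0.80), and Myc, which promotes growth (0.23). Foxm1, Skp2, E2f7, E2f8 and Myc passed the test, with adjusted p of at most 0.00151 from edgeR.

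**Figure D5:**
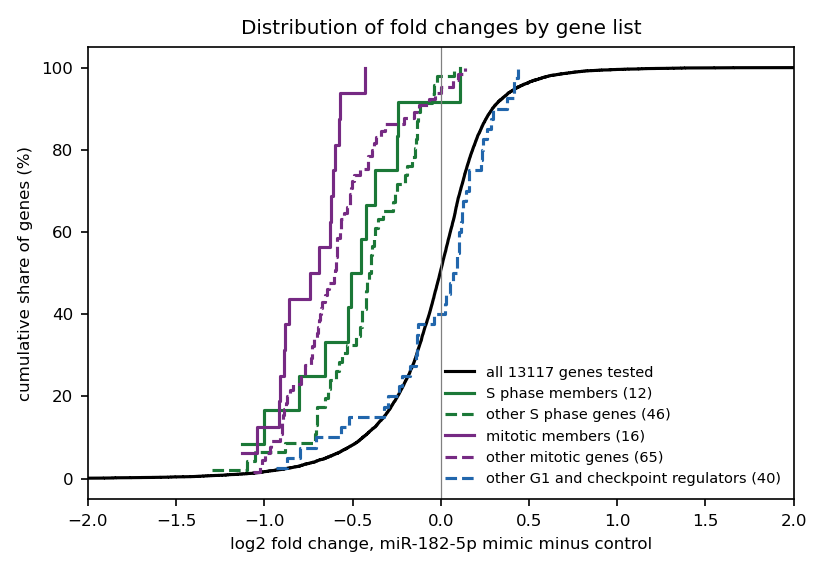
Cumulative share of genes (vertical axis, %) against log2 fold change (horizontal axis, mimic minus control, shown from -2 to 2) for all 13117 genes tested and for 5 lists. The S phase and mitotic curves lie left of the curve of all genes, with medians from -0.72 to -0.40, while the curve of the 40 G1 and checkpoint regulators crosses it.

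Markers of the cells in the culture moved as well. The summed level of 10 adipocyte progenitor markers was 2179 to 2228 CPM in the controls and 1926 to 2073 CPM with the mimic, and 6 of the 9 tested fell and 2 rose. Pdgfra, a receptor that marks progenitors, went from 450 ± 4.97 to 248 ± 7.54 CPM and Cd34 from 17.7 ± 0.923 to 6.14 ± 0.338 CPM, whereas Thy1 went up from 524 ± 19.6 to 596 ± 15.4 CPM and Pdgfrb was at 705 ± 13.5 and 733 ± 7.40 CPM. The 10 adipocyte markers summed to 13211 to 14006 CPM and to 9337 to 10535 CPM. Most of it came from Lpl (means 6275.5 and 4527 CPM) and Fabp4 (3315.5 and 2067.1 CPM). Among the 10, 6 fell and 1 rose, while Plin1, Lipe and Pck1 did not pass the test. For comparison with the counts of each marker list, 23.5% of all genes tested fell and 23.2% rose. Smooth muscle and myofibroblast markers summed to 3454 to 3626 CPM and to 4131 to 4496 CPM, with 3 of 5 higher, led by Acta2 (2364 ± 68.7 and 2891 ± 121 CPM). The 9 macrophage markers summed to only 14.8 to 15.8 CPM and 12.5 to 16.0 CPM, most of it from Csf1r (147 to 216 reads per culture) and Cd68 (118 to 157 reads), with Ptprc, Itgam, Emr1, Mrc1 and C1qa at no more than 8 reads in any culture and 1 of the 4 tested (Lyz2) lower. The 6 endothelial markers summed to 2.32 to 2.80 CPM and 2.73 to 3.68 CPM, most of it from Kdr (30 to 66 reads per culture), with Cldn5 at 0 reads in all cultures and none of the 2 tested past the threshold. The part of these shifts in the levels of the proliferation genes was not tested.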

How the data were processed

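Primary adipocytes from mouse iWAT, 3 cultures per group, were profiled by RNA-seq. The values deposited by the authors are unnormalized counts of reads on each gene, beside 5 tally lines that were left out here (reads outside any gene were 12.7 to 13.0% of uniquely placed reads). The submitters' processing notes name bcl2fastq, TopHat2, HTSeq and the mm9 build, with no versions. The sequences shown come from GRCm38, whose coordinates were not joined to the counts. Groups were taken from the sample labels.

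Counts were filtered (filterByExpr, minimum count 10) and tested with edgeR 4.0.16 in R 4.3.3 by the quasi-likelihood test with TMM factors, two-sided, with Benjamini-Hochberg adjustment over 13117 genes. Code was tested on simulated data. Alternatives were DESeq2 1.42.0, limma-voom 3.58.1, other size factors and filters, a replicate block and leaving out each culture. Log2 values of single cultures used CPM plus 0.1. Named genes were all 39 members, up to 4 genes of each longer list with the smallest p, and the cell type markers that moved with a result. A gene that this rule names is not reported here. The members and lists were chosen with earlier results of these data known.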

Additional observations from a re-analysis of the deposited data

How the results depend on the processing

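The counts of members called and of S phase and mitotic genes that fell or were called stayed within 1.5 times of their values under all alternatives run. No such count was made for the G1 drivers and CDK inhibitors, of which Cdk4 and Cdkn1b passed the adjusted p in only 3 and 4 of 6 fits that each left out a culture. The number called lower, 20, was 20 to 22 under other normalizations, filters and tests and 16 to 24 when a culture was left out. The 16 mitotic genes fell in every fit, and 10 to 15 of them were called when a culture was left out. The S phase genes that fell numbered 10 to 11. Among refits of single members, 494 kept direction and side of the adjusted p, 8 lost and 3 gained it, and 2 changed sign: Cdk6 ranged from -0.19 without control replicate 1 to 0.12 without control replicate 3 and was at 0.0765 without miR182 replicate 1. Tests of Cdk6, Ccnb1 and Cdc6 are limited by low counts. Replicate numbers did not pair the cultures (correlations of same-numbered deviations -0.185, -0.044 and -0.079). With the replicate number as a block, 20 members were called lower and 0 higher, 11 S phase and 16 mitotic genes fell and 0 rose, and over all genes 697 were called lower and 228 higher.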

Other observations

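Genes that repair DNA by homologous recombination, including the Fanconi group, were examined as a further list, chosen after the values of the proliferation genes were seen and before its own were. Of 23 genes 13 fell, 0 rose and 10 did not pass edgeR's test, 8 were called lower and the median log2 fold change was -0.45. Of all genes tested 23.5% fell, 23.2% rose and 5.48% were called lower. Brip1, a helicase that works with Brca1, went from 5.38 ± 0.173 to 2.46 ± 0.310 CPM (log2 fold change -1.13, adjusted p = 5.35e-06 from edgeR). Bard1, the partner of Brca1 in its ubiquitin ligase, Exo1, which resects broken ends, and Fancd2, which is loaded at crosslinked DNA, changed by -1.16, -1.05 and -1.002 on the log2 scale, and Brca1 itself by -0.50. The subunits of the complex that first senses breaks did not pass the test, with Rad50 at 40.8 ± 1.30 and 39.5 ± 0.882 CPM, Nbn at 29.7 ± 0.191 and 29.0 ± 0.211 CPM and Mre11a at 18.9 ± 0.194 and 19.4 ± 0.297 CPM.

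Genes of the other main repair route, end joining, had a median log2 fold change of 0.0031 over 7 genes. Of these 1 fell (Xrcc6, -0.14) and 1 rose (Lig4, which seals the joined ends, 0.29). The 9 cohesin genes, whose products hold sister chromosomes together and also shape chromatin in resting cells, had a median of -0.024, with 2 lower, 3 higher and 0 called. Beside the counts of both lists, 23.5% of all genes tested fell and 23.2% rose. Whether these lists differ from each other was not tested.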
